A study of Mus musculus with 18 samples.

Results

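The genes that encode the machinery of oxidative phosphorylation were examined in bone marrow derived macrophages (BMDMs) from 2 mouse strains. Members were taken by gene name from the protein-coding rows of the count table. They were the complex I genes whose names start with Nduf followed by a, b, c, s or v, the 4 Sdh genes of complex II, the Uqcr genes and Cyc1 of complex III, the Cox4 to Cox8 genes of complex IV, the Atp5 genes of complex V, and all protein-coding genes of the mitochondrial genome. This gave 103 of 20615 genes, 90 encoded in the nucleus and 13 in the mitochondrial genome. The nuclear names covered 36 complex I subunits, 7 complex I assembly factors (Ndufaf1 to Ndufaf7), 4 genes of complex II, 9 of complex III, 17 of complex IV and 15 of complex V. Atp5s and Atp5sl share the Atp5 name and were kept apart from the subunits. Ndufa4 and Ndufa4l2 were placed with complex IV, where the Ndufa4 protein is found.

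The study asked how macrophages of a strain prone to Sjögren's syndrome respond to apoptotic cells (ACs). BMDMs came from C57BL/6 (B6) mice and from C57BL/6.NOD-Aec1Aec2 mice, named SjS here, a C57BL/6 strain that carries a pair of susceptibility intervals from the non-obese diabetic (NOD) mouse. Mice were female and 7 to 12 weeks old, and marrow was grown for a week in medium with L929 supernatant as the source of M-CSF, which both strains and all treatments shared. Each strain had 3 untreated samples (control), 3 samples given 5 apoptotic thymocytes per macrophage for 2 h, washed and incubated for 3 h (AC), and 3 samples given 1 µM CpG, an agonist of Toll-like receptor 9, for 6 h (CpG). The thymocytes had been killed with dexamethasone, and the strain that donated them for these libraries was not given in the sources used here. Samples came from 3 mice per strain, and the labels do not say whether samples with the same number share a mouse. Total counts per sample ran from 30688336 to 57139662. The 10 macrophage markers were all detected in each of the 6 groups, with summed levels from 16079 to 24046 CPM, counts scaled to library size.

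Oxidative phosphorylation passes electrons from NADH (complex I) or succinate (complex II) through ubiquinone to complex III, then through cytochrome c to complex IV and oxygen. The proton gradient made on the way drives the ATP synthase, complex V. The mitochondrial genome is transcribed as long RNAs that are cut into separate messages for a few core subunits of complexes I, III, IV and V. All other subunits, complex II entirely, are made from nuclear genes. Macrophages that sense Toll-like receptor agonists are known for shifting from respiration toward glycolysis, while uptake of apoptotic cells is known for calling on mitochondrial metabolism.

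Mitochondrial genes lie so close together that some share bases, and the shared stretches are shown here because reads on them cannot be assigned to 1 gene without strand or length. Positions are those of GENCODE M21 on GRCm38 (mm10), and the stretches are read on the plus strand with the first and last codon in capitals.
mt-Atp8 with mt-Atp6 (chrM:7927-7969): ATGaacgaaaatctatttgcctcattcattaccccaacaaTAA
mt-Nd5 with mt-Nd6 (chrM:13552-13565): TTAatctcgagTAA
mt-Nd4l with mt-Nd4 (chrM:10167-10173): ATGcTAA
In the stretch of 43 bases, the opening ATG starts mt-Atp6 and the closing TAA stops mt-Atp8. In that of 14 bases the closing TAA stops mt-Nd5, while mt-Nd6, read from the other strand, stops at the complement of the opening TTA. The library kit's strandedness was not given in the sources used here, so reads of mt-Nd6 and antisense reads across it cannot be told apart.

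Chromosome 1 holds a copy of part of the mitochondrial genome, and the table lists it as 7 unprocessed pseudogenes between 24611535 and 24616197 on the minus strand. By shared runs of 31 bases, Gm28437 matched mt-Co3, Gm28661 mt-Co2, Gm10925 mt-Atp6, Gm28438 mt-Nd3, Gm10222 mt-Nd4l, Gm28439 mt-Nd4 and Gm29216 mt-Co1, with 97.2% to 100% of each copy's runs found in its match. The authors' estimation divided reads between them. Of the reads on Gm28437 and mt-Co3 together, a median of 50% over the 18 samples sat on the pseudogene. The share was 50.6% for Gm28438, 40.6% for Gm10925, 38.9% for Gm10222 and 37.9% for Gm28661, but 0.4% for Gm28439 and 0.1% for Gm29216. In all, 13.4% to 15.2% of the reads on members and copies sat on the copies. The share was 13.4% to 14.06% in B6 control samples and 14.52% to 14.75% in SjS AC samples, which did not overlap. Levels of mt-Co2, mt-Co3, mt-Atp6, mt-Nd3 and mt-Nd4l given here are therefore lower than the reads allow. Adding each copy to its match, an alternative chosen after seeing the data, kept the direction and the call of all 115 called fold changes of single members given here.

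Promoters of nuclear members were read from RefSeq windows of GRCm38.p6 that run from 250 bases before to 50 bases after a start, and 71 of 90 members had a window under the same symbol. The letters GCGCA and GCGC with any base between them, which the nuclear respiratory factor NRF1 is known to bind, were searched on both strands. They stood in windows of 19 members (26.8%), against 11.2% of the tested genes with a window, 7.81% of the cytosolic and 19.1% of the mitochondrial ribosomal protein genes. By complex the share was 46.2% of 13 complex V genes, 21.9% of 32 complex I genes and 8.33% of 12 complex IV genes. CCGGAAG, the core of sites for the ETS factor GABP, stood in 23.9% of the members against 19.4% of the tested genes, 39.1% of the cytosolic and 36.8% of the mitochondrial ribosomal protein genes. AAGATGGC, a YY1 core, stood in 12.7% against 5.14%, 9.38% and 17.6%. Stretches of 40 bases are shown for 4 members described below, on the gene's strand with the NRF1 letters in capitals.
Sdha (chr13:74350314-74350353, minus): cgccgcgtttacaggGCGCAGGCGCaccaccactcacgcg
Sdhd (chr9:50603904-50603943, minus): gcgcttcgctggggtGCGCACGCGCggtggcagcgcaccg
Atp5k (chr5:108434425-108434464, minus): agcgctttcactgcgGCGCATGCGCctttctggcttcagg
Ndufaf4 (chr4:24897955-24897994, plus): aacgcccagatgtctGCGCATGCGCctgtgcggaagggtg
The first base of the match lies 98, 79, 50 and 113 bases before the RefSeq start in Sdha, Sdhd, Atp5k and Ndufaf4. In the count table the minus-strand genes Sdha and Atp5k start nearer to the match, at 74350280 and 108434448. Most of the Atp5k match thus lies inside the gene as that table has it.

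Levels are CPM after scaling by the trimmed mean of M values (TMM), a scaling that assumes most genes do not change, and are means ± SD over 3 samples. A gene is called at an adjusted p under 0.05 in edgeR's quasi-likelihood test, with adjustment over all 15789 genes tested. Of the members, 89 nuclear and 13 mitochondrial genes were tested. Ndufa4l2, an isoform of Ndufa4, did not pass the filter on low counts, with 0 to 4 counts per sample. Fold changes are log2 values with the standard error (SE) of the fit, and p-values measure the spread between these samples. In bulk RNA, fewer cells of a type and less RNA per cell cannot be told apart.

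Per kilobase of exon, most mitochondrial members stood above the nuclear ones, but the sets overlapped. In B6 control samples, mt-Co1, the catalytic subunit of complex IV, reached 4273 CPM per kilobase, and mt-Nd3, a small subunit of complex I, was the lowest of the 13 at 97.9. Among nuclear members, Cox8a and Cox4i1, structural subunits of complex IV, were the highest at 179 and 177 CPM per kilobase. This order depends on the length used, which joins the exons of all annotated transcripts of a gene. It also depends on how reads were divided. A median of 50.6% of the reads on mt-Nd3 and its copy Gm28438 sat on the copy. Neither the rank of mt-Nd3 nor the overlap of the sets was read with the copies added. Of the complex IV genes with tissue isoforms, those of most tissues were the abundant ones in these macrophages. In B6 control samples, Cox4i1 stood at 275 CPM against 0.268 for Cox4i2, Cox6a1 at 88.0 against 0.538 for Cox6a2, Cox6b1 at 98.2 against 0.341 for Cox6b2, and Cox7a2 at 36.7 against 1.45 for Cox7a1. Of the 3 genes for the ring subunit c of the ATP synthase, which give the same mature protein, Atp5g3 held 53.3 CPM per kilobase, Atp5g1 2.80 and Atp5g2 0.957.

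In untreated macrophages, RNAs of the mitochondrial genome were lower in SjS than in B6, and most nuclear members were not called. Of the 13 mitochondrial members, 12 were lower in SjS and 0 higher, against a background of 10.6% of all tested genes called lower and 9.04% higher. Of 89 nuclear members, 15 were lower and 1 was higher. The median log2 fold change (SjS minus B6) was -0.72 for mitochondrial members, -0.08 for nuclear members and -0.01 for all tested genes. The summed mitochondrial level was 13734, 13771 and 11582 CPM in B6 control replicates 1 to 3, and 8844, 8512 and 6861 CPM in the SjS control replicates. Every SjS control sample lay below every B6 control sample. The summed nuclear level was 5123, 5102 and 5150 CPM in B6 and 4782, 4846 and 5033 in SjS. The ratio of mitochondrial to nuclear RNA was 2.54 ± 0.255 in B6 control and 1.66 ± 0.258 in SjS control (SD, n = 3).

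**Figure D1:**
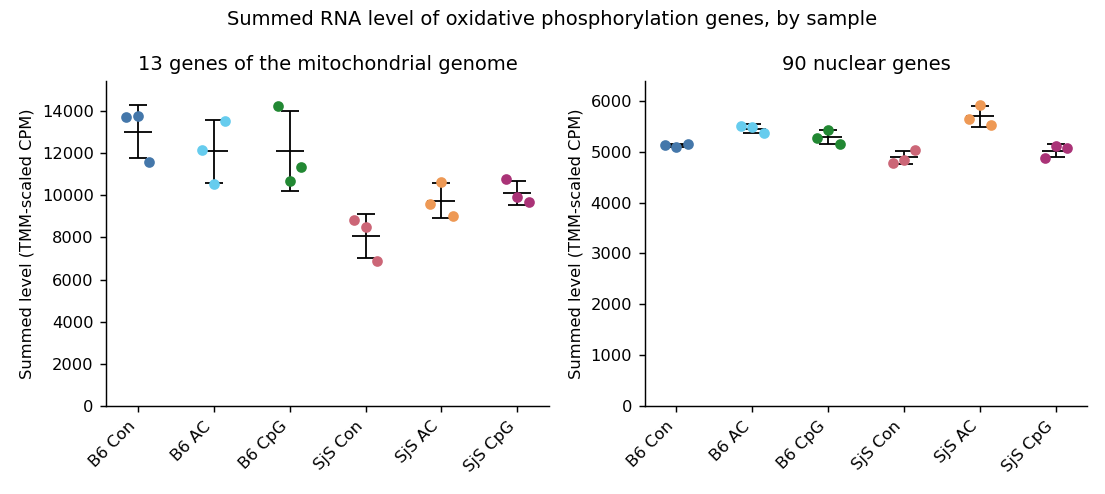
Summed level of the 13 mitochondrial genes (left) and the 90 nuclear genes (right) in TMM-scaled CPM, with a point for each sample and the mean ± SD of 3 samples for each strain (B6, SjS) and treatment (Con, AC, CpG). SjS control samples lie at 6861 to 8844 CPM for mitochondrial genes, below the B6 control samples at 11582 to 13771 CPM. Under TMM the mean nuclear sum is highest in SjS AC samples. As a mean share of all counts it is lowest there, at 0.475% against 0.504% to 0.561% in the other groups.

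The control difference was largest for mt-Nd6, a complex I subunit and the lone member read from the other strand. Its level was 129, 99.1 and 61.0 CPM in B6 and 51.0, 36.9 and 31.5 CPM in SjS, groups that did not overlap (log2 fold change -1.27 ± 0.27 SE, adjusted p = 0.00283). For mt-Atp8, a small subunit of the ATP synthase, the values were 131, 118 and 81.9 CPM against 60.1, 45.7 and 39.99 CPM (-1.18 ± 0.18, adjusted p = 1.41e-04). mt-Nd5, a proton-pumping subunit of complex I, followed at -0.87 ± 0.16 (adjusted p = 8.76e-04). mt-Co1 stood at 6634, 7120 and 6054 CPM in B6 and 4144, 4216 and 3317 CPM in SjS (-0.76 ± 0.11, adjusted p = 5.74e-05). Closer to 0 were mt-Nd4 (-0.73 ± 0.16), mt-Nd4l (-0.72 ± 0.10) and mt-Nd2 (-0.57 ± 0.18) of complex I, mt-Atp6 (-0.72 ± 0.14), mt-Co2 (-0.59 ± 0.12), mt-Cytb, the cytochrome b of complex III (-0.53 ± 0.11), and mt-Co3 (-0.50 ± 0.10), with adjusted p from 7.63e-05 to 0.0288, and the call of mt-Nd2 was lost without any of B6 control replicates 1 and 2 or SjS control replicates 2 and 3. Among the called members mt-Nd1 differed least, at -0.43 ± 0.14 (adjusted p = 0.0372), a call lost under library totals and without any of B6 control replicates 1 and 2 or SjS control replicates 2 and 3, and mt-Nd3 missed the threshold at -0.23 ± 0.25 (adjusted p = 0.589). Groups did not overlap for 10 of the 13, against 17.6% of all tested genes with SjS below B6. With a sample left out, 10 to 12 of the 13 stayed lower. With the chromosome 1 copies added, the summed level was 15112 ± 1416 CPM in B6 control and 9447 ± 1182 in SjS control (SD, n = 3).

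Nuclear members lower in SjS control samples came from every complex, with small differences. Atp5k, subunit e of the ATP synthase, differed most at -0.45 ± 0.11 (adjusted p = 0.00634). Sdhc, which anchors complex II in the membrane, stood at 87.4, 86.8 and 81.5 CPM in B6 and 65.5, 63.9 and 69.0 CPM in SjS (-0.36 ± 0.05, adjusted p = 7.17e-05). Its groups did not overlap, as for 17.6% of all tested genes with SjS below B6. Uqcrb, a ubiquinone-binding subunit of complex III, stood at -0.36 ± 0.09 (adjusted p = 0.0114), a call lost without B6 control replicate 2 or SjS control replicate 3. Cox5a, a subunit of complex IV, was at -0.18 ± 0.05 (adjusted p = 0.00945), a call lost without SjS control replicate 2. Ndufa11, a membrane subunit of complex I, was the lone nuclear member called higher, at 0.24 ± 0.08 (adjusted p = 0.0443). The 15 lower calls became 6 without SjS control replicate 2 and 8 without B6 control replicate 1 or 2, and the call of Ndufa11 was lost in 8 of the 18 fits with a sample left out.

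**Figure D2:**
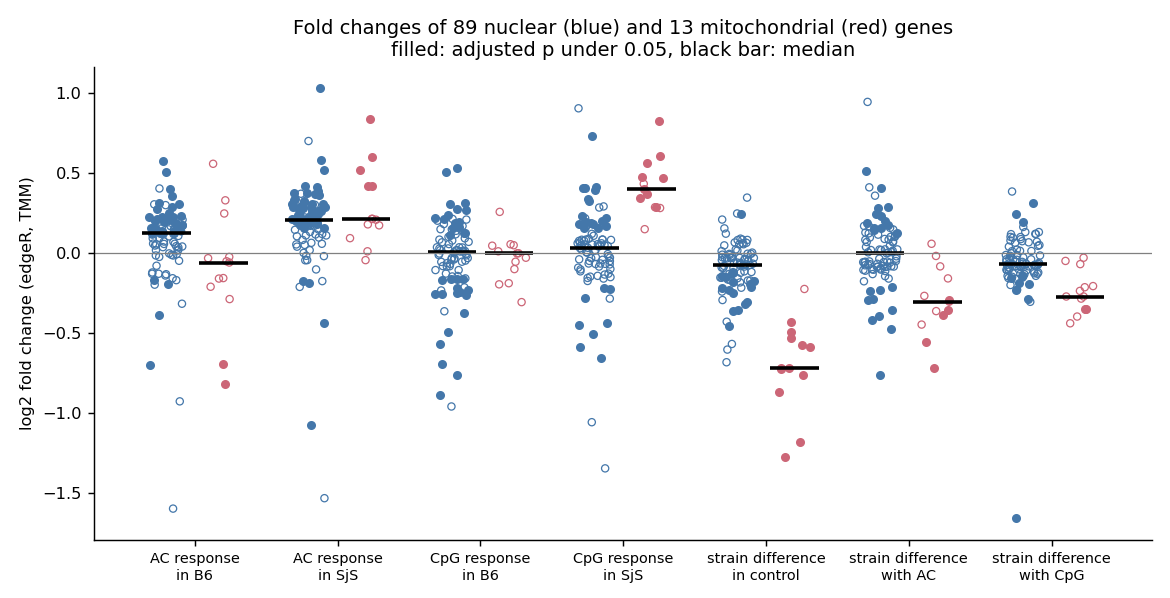
Log2 fold change of every tested member in 7 comparisons of 2 groups, with nuclear genes in blue and mitochondrial genes in red, filled where the adjusted p is under 0.05, and a black bar at the median of each set. The mitochondrial median is -0.72 in the control strain difference, where 12 of 13 points are filled, and 0.40 in the CpG response of SjS.

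With ACs, more nuclear members were higher than lower in both strains, while few mitochondrial members were called. In B6, 33 of 89 nuclear members were higher with ACs and 4 lower, against 20% and 18.3% of all tested genes. In SjS, 51 were higher and 4 lower, against 28.6% and 29.4%. Of cytosolic ribosomal protein genes, 8.6% were higher and 25.8% lower in B6, and 59.1% and 2.15% in SjS. Of mitochondrial ribosomal protein genes, 53.2% were higher and 1.3% lower in B6, and 42.9% and 11.7% in SjS. The count of 33 nuclear members in B6 became 16 without B6 control replicate 1 or B6 AC replicate 2. It became 20 without B6 control replicate 3, and 21 without B6 AC replicate 1 or 3. The nuclear median was 0.12 in B6 and 0.21 in SjS, with all tested genes at 0.00 and -0.02. Scaled to library totals alone, 8 nuclear members were higher and 11 lower in B6, and the split in SjS was 1 to 56, because this scaling moved the median of all tested genes to -0.07 in B6 and -0.43 in SjS. Relative to the median of all genes, the nuclear median was 0.22 in SjS under both scalings. A change of scaling moves all genes of a comparison by nearly the same amount, so this distance is kept by construction. Directions given here for SjS AC samples are therefore relative to the bulk of genes. Among the nuclear members, 66 of 89 in B6 and 77 of 89 in SjS lay above the median of all genes.

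By complex, the increases in SjS covered 20 of 36 complex I subunits (1 lower), 1 of 4 of complex II, 6 of 9 of complex III, 12 of 16 tested of complex IV (1 lower) and 11 of 15 of complex V. In B6 they covered 14, 2 (1 lower), 2 (1 lower), 6 (1 lower) and 7. Cox5a rose in both strains. It stood at 99.4, 99.98 and 101 CPM in B6 control samples and 122.9, 126.9 and 122.8 CPM with ACs (0.31 ± 0.05, adjusted p = 2.73e-05), and at 88.6, 85.1 and 90.9 CPM in SjS control and 132, 137 and 127 CPM with ACs (0.58 ± 0.05, adjusted p = 2.54e-09). Atp5b, the catalytic beta subunit of the ATP synthase, rose by 0.28 ± 0.05 in B6 and 0.42 ± 0.05 in SjS (adjusted p = 2.09e-04 and 7.11e-07). Cox7b, a small subunit of complex IV, was at 66.3 ± 1.72 CPM in B6 control and 77.6 ± 1.98 with ACs, and at 63.1 ± 1.95 and 74.5 ± 3.06 CPM in SjS (SD, n = 3). Cyc1, the heme-bearing cytochrome c1 of complex III, rose by 0.35 ± 0.07 and 0.37 ± 0.07 (adjusted p = 7.96e-04 and 2.45e-04). Under library totals the value of Atp5b in SjS was 0.00 and no longer called, and that of Cyc1 turned to -0.04.

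Among assembly factors, Ndufaf3, which helps build complex I, rose in both strains (0.57 ± 0.11 and 0.52 ± 0.11, adjusted p = 4.09e-04 and 5.84e-04), and the call in SjS was lost under library totals at 0.10. Ndufaf4, its partner in assembly, rose in B6 from 10.8, 9.97 and 9.73 CPM to 13.5, 14.0 and 15.7 CPM (0.50 ± 0.09, adjusted p = 2.46e-04). In SjS it stood at 9.14, 7.93 and 7.54 CPM without and 8.22, 8.69 and 8.64 CPM with ACs (0.05 ± 0.10, adjusted p = 0.667), and the interaction of strain and AC was -0.45 ± 0.13 (adjusted p = 0.0123). In SjS, the largest called increase was that of Cox6a2, the muscle isoform of a complex IV subunit, at 1.03 ± 0.39 (adjusted p = 0.0302). Its level was 0.308 to 0.444 CPM in control and 0.561 to 0.925 CPM with ACs, and the call was lost under library totals (0.62) and without SjS control replicate 1 or 3 or SjS AC replicate 2. Ndufb4, a membrane-arm subunit of complex I, rose by 0.40 ± 0.11 in B6 (adjusted p = 0.0082), a call lost without B6 AC replicate 3.

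The members that fell with ACs were led by Cox7a2l in B6 and Atp5sl in SjS. Cox7a2l, a relative of Cox7a2, stood at 156, 153 and 145 CPM in B6 control samples and 95.3, 95.2 and 89.2 CPM with ACs (-0.70 ± 0.06, adjusted p = 1.64e-08). In SjS it stood at 158, 150 and 144 CPM without and 134, 141 and 124 CPM with ACs (-0.18 ± 0.06, adjusted p = 0.0113), a call lost without SjS control replicate 1 or SjS AC replicate 3. Atp5sl fell from 18.9, 18.1 and 20.8 CPM to 8.91, 9.57 and 8.996 CPM in SjS (-1.07 ± 0.08, adjusted p = 1.52e-09). In B6 it fell from 16.4, 15.98 and 17.6 CPM to 12.7, 12.4 and 13.1 CPM (-0.39 ± 0.08, adjusted p = 7.98e-04). None of these groups overlapped with their controls, which held for 49.9% of all tested genes in B6 and 63.9% in SjS. Also lower were Uqcrh, the hinge subunit of complex III, in B6 (-0.19 ± 0.06, adjusted p = 0.00966, a call lost without B6 AC replicate 3) and Atp5s in SjS (-0.44 ± 0.14, adjusted p = 0.00984). Sdhd, a membrane anchor of complex II like Sdhc, was at -0.17 ± 0.07 in B6 (adjusted p = 0.043), a call lost in 9 of the 18 fits with a sample left out, and Ndufv3, an accessory subunit of the NADH-binding part of complex I, at -0.19 ± 0.08 in SjS (adjusted p = 0.0421), a call lost in 8 of the 25 alternatives.

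**Figure D3:**
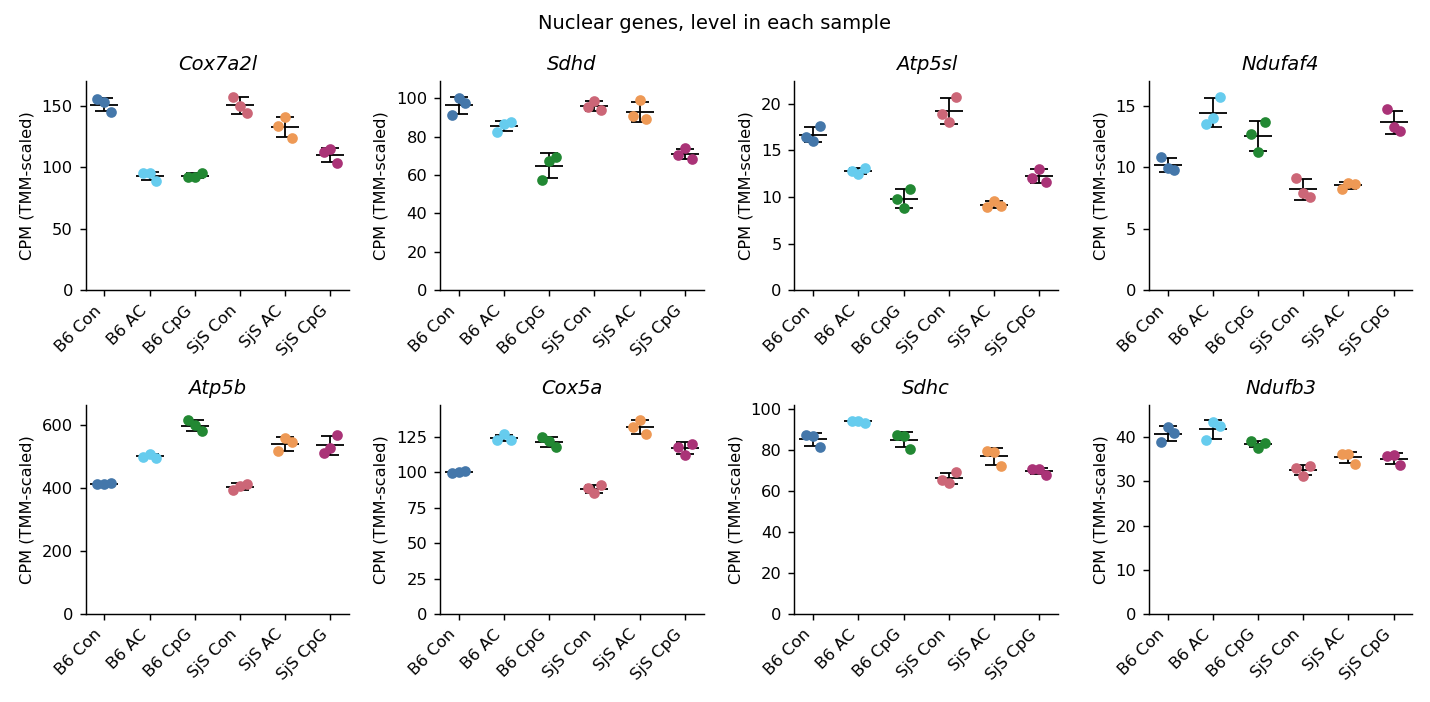
Level of 8 nuclear genes in TMM-scaled CPM, with a point for each sample and the mean ± SD of 3 samples for each strain and treatment. Cox7a2l drops to 89.2 to 95.3 CPM in B6 with ACs but lies at 124 to 141 CPM in SjS with ACs, and Sdhc is lower in SjS than in B6 under each treatment.

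Core subunits of the complexes did not move together. Ndufs1, the largest iron-sulfur subunit of complex I, stood at 54.3 to 62.2 CPM over all 18 samples and was called in none of the 9 comparisons. Ndufv1, which binds NADH, rose with ACs in B6 (0.15 ± 0.05, adjusted p = 0.0273), a call lost without B6 control replicate 2 or 3 or B6 AC replicate 1, and was at 0.05 ± 0.05 in SjS (adjusted p = 0.441). Sdhb, the iron-sulfur subunit of complex II, rose in B6 (0.21 ± 0.06, adjusted p = 0.0117), a call lost without B6 control replicate 1, and was at 0.02 ± 0.06 in SjS (adjusted p = 0.834). Atp5a1, the alpha subunit that forms the catalytic head of the ATP synthase with Atp5b, rose in SjS from 351, 365 and 372 CPM to 458, 479 and 458 CPM (0.36 ± 0.05, adjusted p = 2.2e-06), a value that turned to -0.06 under library totals. Cox4i1 was at 0.19 ± 0.06 in SjS with ACs (adjusted p = 0.015), which turned to -0.23 under library totals and was not called without SjS control replicate 1 or 2 or SjS AC replicate 2. Of the 3 subunit c genes, Atp5g3 rose by 0.14 ± 0.04 in B6 (adjusted p = 0.0147), a call lost without B6 control replicate 3 or B6 AC replicate 2, and by 0.31 ± 0.04 in SjS (adjusted p = 4.7e-06), a value that turned to -0.11 under library totals. Atp5g1 and Atp5g2 were called in none of the 9 comparisons. Under library totals the B6 calls of Ndufv1 (0.08), Sdhb (0.14) and Atp5g3 (0.07) were lost.

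Of the mitochondrial members, 0 rose and 2 fell with ACs in B6, against 20% and 18.3% of all tested genes, and 5 rose and 0 fell in SjS, against 28.6% and 29.4%. mt-Nd5 fell in B6 from 809, 717 and 574 CPM to 443, 357 and 498 CPM (-0.69 ± 0.16, adjusted p = 0.00192). mt-Nd6, its neighbour on the other strand, fell by 0.82 on the log2 scale (± 0.27 SE, adjusted p = 0.0212), a call lost without B6 control replicate 1 or 2 or B6 AC replicate 1 or 2. In SjS, mt-Nd5 was at 0.09 ± 0.16 (adjusted p = 0.65) and mt-Nd6 at 0.01 ± 0.27 (adjusted p = 0.979). The 5 that rose in SjS were mt-Nd3 (0.84 ± 0.25), mt-Nd2 (0.60 ± 0.18) and mt-Nd1 (0.52 ± 0.14) of complex I, mt-Co3 of complex IV (0.42 ± 0.10) and mt-Atp6, the proton channel subunit of complex V (0.42 ± 0.14), with adjusted p from 0.00153 to 0.0139. Under library totals none of the 5 was called and their values ran from 0.00 to 0.43. These rises are measured from the SjS control samples that also give the control strain difference. Without SjS control replicate 3, 3 were called, with mt-Nd3 and mt-Atp6 lost, and mt-Atp6 was also lost without SjS AC replicate 2. The summed mitochondrial level with ACs was 12083 ± 1490 CPM in B6 and 9739 ± 833 CPM in SjS (SD, n = 3), and the B6 AC samples overlapped with the B6 control samples.

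Signs of ingested thymocytes were read beside these results. The summed level of 20 thymocyte and T lineage markers was 11.6 to 13.4 CPM in B6 control and 6.91 to 8.40 CPM in B6 AC samples, and 12.98 to 16.04 CPM in SjS control and 17.7 to 22.2 CPM in SjS AC samples. Of this sum, Cd4 held 8.60 ± 0.894 CPM in B6 control and 3.57 ± 0.225 with ACs, and 10.3 ± 0.747 and 14.0 ± 2.74 CPM in SjS (SD, n = 3). Of the 7 markers that passed the filter, 2 were higher and 2 lower with ACs in B6, and 3 were higher and 1 lower in SjS. Over all tested genes the shares were 20% and 18.3% in B6, and 28.6% and 29.4% in SjS. The median log2 fold change of the 7 markers was 0.71 in B6, opposite in sign to the change of the sum, and 0.81 in SjS. At the defining markers, Rag1, Dntt and Trac had 0 counts in B6 control, and Rag1 had 0 counts in SjS control, where AC samples had 0 only at Themis in SjS and at none in B6. Their part in the result was not tested.

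Tested directly, the AC responses of 18 nuclear members differed between strains, 16 with a higher value in SjS and 2 with a lower one, against 19.6% and 18.3% of all tested genes. The count of 16 became 10 without B6 control replicate 1. Cox7a2l differed most among the called subunits, at 0.52 ± 0.08 (adjusted p = 4.3e-05), which library totals put at 0.18 and did not call. Also called were Cox8a (0.32 ± 0.09), Uqcrfs1, the iron-sulfur protein of complex III (0.32 ± 0.07), Uqcrh (0.31 ± 0.08), Atp5c1, the rotor stalk of the ATP synthase (0.29 ± 0.07), and Cox5a (0.27 ± 0.07), and all 5 turned under library totals, to values from -0.07 to -0.02. The lower ones were Atp5sl (-0.68 ± 0.12, adjusted p = 1.11e-04) and Ndufaf4. Under library totals the median of all genes in this comparison moved to -0.35 and the split became 0 higher and 42 lower. Among mitochondrial members, 2 were called higher, mt-Nd5 (0.78 ± 0.23, adjusted p = 0.0101) and mt-Co3 (0.48 ± 0.14, adjusted p = 0.0127), and the median of 0.36 moved to 0.02 under library totals, which called 0. All 13 lay above the median of all genes under both scalings, a rank that a change of scaling hardly alters. The control samples are also those of the control strain difference, so this rank does not stand apart from it.

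**Figure D4:**
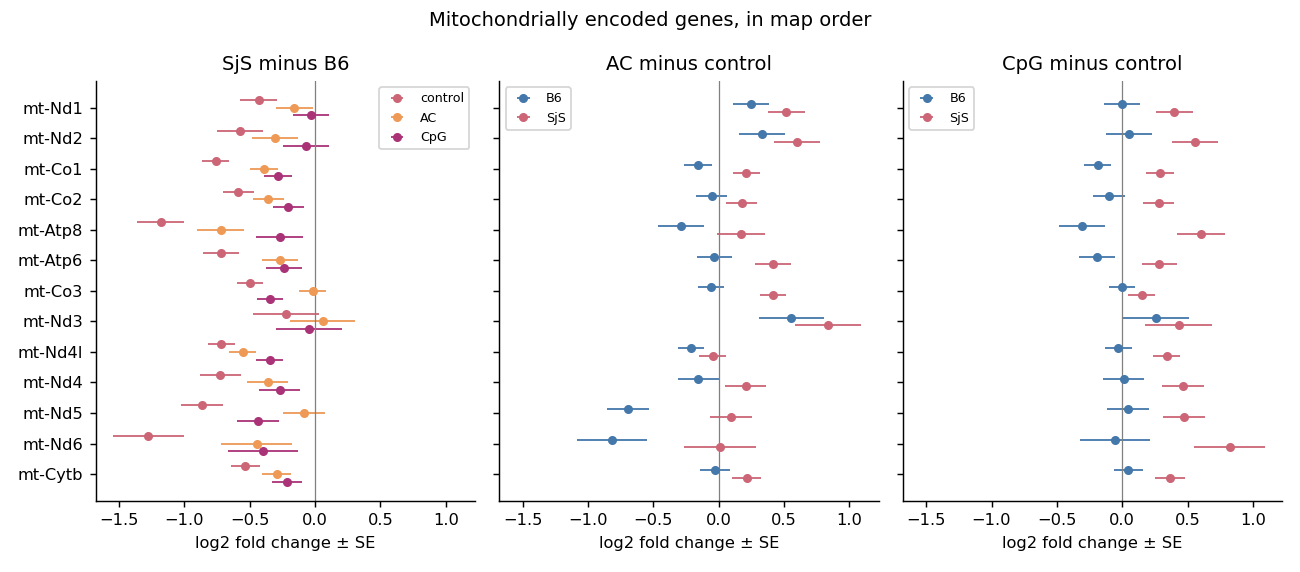
Log2 fold change ± SE of the 13 mitochondrial genes in map order for the strain difference under each treatment (left), the AC response (middle) and the CpG response (right) of each strain. In the left panel the control values lie furthest below 0, down to -1.27 for mt-Nd6, and in the right panel all SjS values lie above 0 while B6 values scatter around it.

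With CpG, nuclear members moved in both directions in both strains. In B6, 16 were higher and 17 lower, against 28.1% and 29.8% of all tested genes, and the median was 0.00 with all genes at -0.04. In SjS, 17 were higher and 8 lower, against 27.8% and 26.4%, with a median of 0.03 against -0.01. Under library totals the splits were 2 higher and 47 lower in B6, where the median of all genes was -0.22, and 5 higher and 29 lower in SjS, where it was -0.14. In complex I, 1 member was higher in B6 and 8 were lower, and 4 were higher in SjS with 2 lower. Complex IV had 6 higher and 1 lower in each strain. Of complex II, 0 were higher and 2 lower in each strain. Same-numbered samples deviated together between control and CpG samples of B6, and with the replicate number as a block 16 nuclear members were higher and 18 lower in that comparison. Without B6 CpG replicate 1, 9 were higher.

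The 2 complex II members that fell were Sdhd and Sdha, the latter the flavoprotein that oxidizes succinate. Sdhd stood at 91.0, 99.9 and 97.6 CPM in B6 control samples and 57.5, 67.5 and 69.4 CPM with CpG (-0.57 ± 0.07, adjusted p = 3.78e-07). In SjS it fell from 95.2, 98.6 and 93.7 CPM to 70.4, 73.9 and 68.4 CPM (-0.43 ± 0.07, adjusted p = 1.38e-05). Sdha fell by 0.22 on the log2 scale in both strains (± 0.04 SE, adjusted p = 1.53e-04 in B6 and 1.75e-04 in SjS). Cox7a2l fell again, to 92.6, 92.0 and 95.7 CPM in B6 (-0.69 ± 0.06, adjusted p = 3.63e-09) and to 112, 115 and 104 CPM in SjS (-0.45 ± 0.06, adjusted p = 1.74e-06). These falls of Sdhd, Sdha and Cox7a2l were called under all 25 alternatives run.

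Ndufaf7, a methyltransferase that acts during complex I assembly, fell by 0.89 ± 0.15 in B6 and 0.58 ± 0.15 in SjS (adjusted p = 4.2e-05 and 0.00228), from 4.69 to 6.54 CPM in control samples. Ndufaf3 and Ndufaf4 were again higher. Ndufaf4 reached 14.7, 13.3 and 12.9 CPM in SjS with CpG (0.73 ± 0.10, adjusted p = 2.35e-06) and 12.7, 11.3 and 13.7 CPM in B6 (0.30 ± 0.09, adjusted p = 0.0087). Ndufaf3 rose by 0.51 ± 0.11 in B6 and 0.39 ± 0.11 in SjS (adjusted p = 6.68e-04 and 0.00653). Under library totals the calls of Ndufaf4 in B6 (0.13) and Ndufaf3 in SjS (0.26) were lost. Atp5sl fell in B6 (-0.76 ± 0.08, adjusted p = 1.69e-07) and SjS (-0.66 ± 0.08, adjusted p = 1.3e-06), and Atp5s in SjS by 0.51 ± 0.14 (adjusted p = 0.00408). Ndufb11, a membrane-arm subunit of complex I, fell by 0.37 ± 0.06 and 0.22 ± 0.06 (adjusted p = 1.68e-05 and 0.00301).

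Atp5b led the increases with CpG in B6, from 412, 411 and 416 CPM to 613, 598 and 579 CPM (0.53 ± 0.05, adjusted p = 2.66e-08). In SjS it rose from 393, 406 and 413 CPM to 509, 525 and 568 CPM (0.40 ± 0.05, adjusted p = 1.34e-06). Cox5a rose by 0.28 ± 0.05 in B6 and 0.40 ± 0.05 in SjS (adjusted p = 4.02e-05 and 4.98e-07). Cox7a2 rose in B6 (0.31 ± 0.07, adjusted p = 5.82e-04), and Uqcrb in SjS (0.41 ± 0.09, adjusted p = 9.83e-04). Under library totals the B6 values of Cox5a (0.10) and Cox7a2 (0.13) were not called. Atp5b and Cox5a thus rose in all 4 responses under TMM, and Cox7a2l fell in all 4. Each pair of responses within a strain shares its control samples.

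With CpG, most mitochondrial members rose in SjS and none was called in B6. In SjS 9 of 13 were called higher and 0 lower, against 27.8% and 26.4% of all tested genes, with a median of 0.40, and in B6 0 were called in either direction, with a median of 0.00. At an unadjusted p under 0.05, 0 mitochondrial members were called in B6, and DESeq2 called 0. mt-Nd6 stood at 92.8, 58.1 and 60.4 CPM in SjS with CpG (0.82 ± 0.27, adjusted p = 0.0156), above each SjS control sample. mt-Atp8 was at 83.0, 68.6 and 69.9 CPM (0.60 ± 0.18, adjusted p = 0.00828), mt-Nd2 rose by 0.56 ± 0.18 (adjusted p = 0.012) and mt-Co1 by 0.29 ± 0.11 (adjusted p = 0.0277). CpG samples lay above all control samples for 12 of 13 members, against 30.6% of all tested genes. The same SjS control samples give the control strain difference, so the CpG rise does not stand apart from it. SjS control replicate 3 had the lowest summed mitochondrial level of the 18 samples, and without it 1 of 13 was called, with mt-Nd6, mt-Atp8, mt-Nd2 and mt-Co1 all lost. Without SjS CpG replicate 1, 3 were called, as under library totals, where mt-Co1 (0.16) was not. The call of mt-Nd6 was also lost without SjS control replicate 2, and that of mt-Co1 without SjS CpG replicate 2.

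The strains' CpG responses differed for 1 mitochondrial and 2 nuclear members, against 3.24% of all tested genes with a higher and 2.62% with a lower value in SjS. mt-Atp8 had an interaction of 0.91 ± 0.25 (adjusted p = 0.0397) and Ndufc2, a complex I subunit, one of 0.32 ± 0.09 (adjusted p = 0.0404). Ndufc2 fell in B6 (-0.17 ± 0.06, adjusted p = 0.0317) and rose in SjS (0.16 ± 0.06, adjusted p = 0.0447). Uqcrc1, a core subunit of complex III, stood at 99.2, 103 and 108 CPM in B6 control samples, 124, 122 and 120 CPM with CpG, and at 109, 111 and 117 CPM in SjS control and 104, 107 and 110 CPM with CpG. Its interaction was -0.31 ± 0.08 (adjusted p = 0.0223). All 13 mitochondrial values of the interaction were above 0, with a median of 0.43. The 13 messages are cut from shared long RNAs, so they are not separate observations. This comparison uses the same control samples as the interaction with ACs, so neither bears on the other. Both also use the samples of the control strain difference, where mitochondrial members were lower in SjS. Their signs therefore do not stand apart from that difference. The interaction of mt-Atp8 lost its call in 9 and that of Ndufc2 in 13 of the 18 fits with a sample left out, and the response of Ndufc2 in SjS lost it in 18 of all 25 alternatives. Uqcrc1 lost its call under library totals (-0.26) and without B6 control replicate 1, SjS control replicate 3 or SjS CpG replicate 1.

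Between AC-treated strains, 5 mitochondrial members were lower in SjS and 0 higher, against 25.5% and 24% of all tested genes, and the median was -0.30. The 5 were mt-Atp8 (-0.72 ± 0.18), mt-Nd4l (-0.55 ± 0.10), mt-Co1 (-0.39 ± 0.11), mt-Co2 (-0.36 ± 0.12) and mt-Cytb (-0.29 ± 0.11), with adjusted p from 2.09e-04 to 0.0389. Without B6 AC replicate 1 or 3 or SjS AC replicate 3, 3 were called. Under library totals 12 were lower with ACs and 11 in control samples, and whether the number differed between treatments was not tested. With CpG 2 were lower and 0 higher, against 9.57% and 10.2%, and the median was -0.27. These were mt-Nd4l (-0.35 ± 0.10, adjusted p = 0.0215) and mt-Co3 (-0.35 ± 0.10, adjusted p = 0.0202), and neither was called without B6 CpG replicate 1, without SjS CpG replicate 2 or under library totals.

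Nuclear members differed between AC-treated strains in both directions, 13 higher in SjS and 10 lower, with a median of 0.00. These were 14.6% and 11.2% of the tested nuclear members, against 24% and 25.5% of all tested genes. Without B6 AC replicate 3 the counts were 8 and 6, and 8 were higher without SjS AC replicate 2 and 6 lower without SjS AC replicate 3. Under library totals, which put the median of all genes at -0.35, 1 was higher and 69 lower. Cox7a2l was higher in SjS (0.51 ± 0.06, adjusted p = 4.6e-07), as were Ndufs8, an iron-sulfur subunit of complex I (0.40 ± 0.07, adjusted p = 1.82e-04), and Uqcrfs1 (0.28 ± 0.05, adjusted p = 5.67e-05). Under library totals Ndufs8 was at 0.10 and not called, and Uqcrfs1 turned to -0.02. Ndufaf4 (-0.76 ± 0.09, adjusted p = 2.04e-06), Atp5sl (-0.48 ± 0.08, adjusted p = 1.03e-04) and Atp5s (-0.42 ± 0.14, adjusted p = 0.0164, lost without B6 or SjS AC replicate 3) were lower. With CpG, 3 nuclear members were higher and 7 lower, with a median of -0.07. Their shares were 3.37% and 7.87%, against 10.2% and 9.57% of all tested genes. The 7 became 2 without B6 CpG replicate 1 or SjS CpG replicate 1, 3 without B6 CpG replicate 2, 4 without SjS CpG replicate 2 and 11 without B6 CpG replicate 3, and 1 was higher without B6 or SjS CpG replicate 2. The higher ones were Atp5sl (0.31 ± 0.08, adjusted p = 0.0125, lost without B6 or SjS CpG replicate 2), Cox7a2l (0.24 ± 0.06, adjusted p = 0.00543) and Ndufc2 (0.19 ± 0.06, adjusted p = 0.0413, lost in 12 of the 25 alternatives). Atp5sl was thus lower in SjS with ACs and higher with CpG. Of all members in all comparisons, 1 passed both the adjusted p and the log2 threshold of 1.3, against 2.61% of tested genes in its comparison. It was Cox6b2, the testis isoform of a complex IV subunit, lower in SjS with CpG at -1.66 ± 0.54 (adjusted p = 0.037), on 2, 7 and 4 counts against 18, 8 and 18 in B6, and the call was lost with the replicate block, without the filter, and without either of B6 CpG replicates 1 and 3 or SjS CpG replicates 1 and 3.

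Members on chromosomes 1 and 3, which carry the NOD intervals of the SjS strain, were read apart. Those on chromosome 1 included Cox5b, Ndufa10, Ndufb3, Ndufs1 and Sdhc, and chromosome 3 holds 3 (Atp5f1, Ndufb5 and Ndufc1). Sdhc (mm10 chr1:171127165-171150603) was lower in SjS under each treatment, at -0.36 ± 0.05 in control, -0.29 ± 0.05 with ACs and -0.28 ± 0.05 with CpG (adjusted p = 7.17e-05, 1.48e-04 and 6.74e-04). All 25 alternatives kept these calls. All SjS samples lay below all B6 samples of the same treatment. Over all tested genes, 34.4% in control, 60.7% with ACs and 34.2% with CpG did not overlap, counting both directions. Ndufb3 (chr1:58586384-58595964), an accessory subunit of complex I, was at -0.32 ± 0.05 in control and -0.24 ± 0.05 with ACs (adjusted p = 4.23e-04 and 0.00139). With CpG it was at -0.13 ± 0.05 (adjusted p = 0.106). Whether these genes lie inside the introgressed intervals was not tested.

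**Figure D5:**
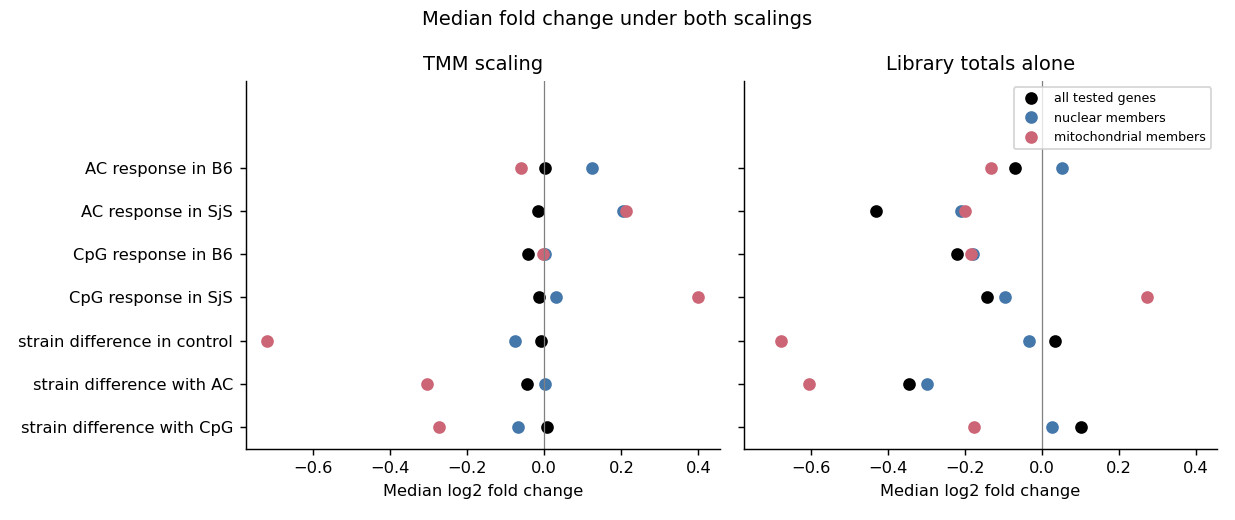
Median log2 fold change of all tested genes, the 89 nuclear members and the 13 mitochondrial members in 7 comparisons, scaled by TMM (left) or by library totals alone (right). In the AC response of SjS the nuclear median moves from 0.21 to -0.21 and that of all genes from -0.02 to -0.43. A change of scaling moves all genes by nearly the same amount, so their distance is kept by construction.

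Other genes of the pathway were read from lists chosen with earlier results of these data known. Cycs, which encodes cytochrome c, was 17.8 ± 1.09 CPM in B6 control, 29.2 ± 1.498 with ACs and 41.9 ± 2.88 with CpG, and 16.2 ± 1.60, 40.1 ± 0.824 and 36.2 ± 0.903 CPM in SjS (SD, n = 3), and it rose in all 4 responses (log2 0.72, 1.24, 1.305 and 1.16 for AC and CpG in B6 and AC and CpG in SjS). Of 14 tested genes for ubiquinone synthesis and mobile carriers, 4 were higher and 1 lower with ACs in B6, and 5 and 4 in SjS. Over all tested genes the shares with ACs were 20% and 18.3% in B6, and 28.6% and 29.4% in SjS. AA467197, whose protein takes the place of Ndufa4 in complex IV, reached 10.1 ± 0.898 CPM in SjS with ACs and 2.80 ± 0.914 in B6 with ACs, from 0.662 and 0.628 CPM in control. Acod1, which makes itaconate, an inhibitor of complex II, stood at 5312 ± 63.4 CPM in SjS with ACs, 1174 ± 137 in B6 with ACs, 1824 ± 182 and 2549 ± 193 with CpG, and 20.9 and 42.1 in control. Nos2, whose product nitric oxide inhibits complex IV, was at 51.3 ± 4.76 CPM in SjS with ACs and at most 8.73 CPM in any sample of the other groups. Of the 9 tested genes of the inflammation-linked list that holds Acod1 and Nos2, 5 were higher and 1 lower with ACs in B6, and 7 and 0 in SjS. The shares of all tested genes with ACs given above apply here too. Sod2, the superoxide dismutase of the mitochondrial matrix, went from 136 ± 2.85 to 469 ± 28.7 CPM with ACs and 1536 ± 108 with CpG in B6, and from 74.6 ± 1.61 to 744 ± 29.9 and 1087 ± 43.1 CPM in SjS (SD, n = 3). Ucp2, a carrier of the inner membrane, fell with CpG by 0.75 ± 0.05 in B6 and 0.83 ± 0.05 in SjS on the log2 scale (adjusted p = 4.55e-10 and 1.32e-10). Slc25a5 and Slc25a4, which exchange ADP and ATP across that membrane, rose with ACs in SjS (0.35 ± 0.05 and 0.29 ± 0.06, adjusted p = 2.76e-06 and 3.44e-04) and were at -0.01 and 0.01 in B6 (adjusted p = 0.848 and 0.924). Hif1a, a regulator of glycolysis, rose by 0.73 ± 0.10 in B6 and 1.395 ± 0.11 in SjS with ACs (adjusted p = 1.76e-05 and 1.19e-09). Pdk4, which restrains pyruvate entry into the mitochondrial cycle, was called in none of the 4 responses.

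Assembly factors outside the Nduf names moved both ways. Over all tested genes, the shares higher and lower were 20% and 18.3% with ACs in B6, 28.6% and 29.4% with ACs in SjS, 28.1% and 29.8% with CpG in B6, and 27.8% and 26.4% with CpG in SjS. Of 23 complex IV assembly factors, 8 were higher and 1 lower with ACs in B6, 9 and 6 in SjS, 9 and 4 with CpG in B6, and 7 and 2 in SjS. Of 8 further complex I factors, 1 was higher and 1 lower with ACs in B6 and 2 and 3 in SjS. Tmem126b, of the complex I assembly complex, fell in all 4 responses, from 30.1 ± 1.71 to 23.7 ± 1.66 CPM with ACs and 13.4 ± 1.13 with CpG in B6, and from 31.9 ± 2.01 to 14.6 ± 1.04 and 16.4 ± 0.335 CPM in SjS. Of 13 genes of mitochondrial RNA processing, 9 were higher and 0 lower with ACs in B6 and 4 and 2 in SjS, and 8 of 13 were lower in SjS than in B6 with ACs, against 25.5% of all tested genes. Of 13 genes of mitochondrial transcription and genome maintenance, 2 were higher and 2 lower with ACs in B6 and 3 and 7 in SjS. In control samples 0 genes of the processing list were higher in SjS and 2 lower, and 2 of the transcription list were higher and 1 lower, against 9.04% and 10.6% of all tested genes.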

How the data were processed

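RNA of 18 BMDM samples was sequenced by the authors, who aligned reads to mm10 with STAR and estimated gene counts in Partek Flow. The labels' processing notes also list DESeq2 3.13. The deposited table holds these estimated counts for 20615 genes with names, positions and biotypes. Of its values, 41.1% were not whole within 1e-06, and all were rounded here. Strandedness and RNA selection were not given in the sources used here. edgeR 4.0.16 (R 4.3.3) was run with TMM scaling and its default filter on low counts, which kept 15789 genes, as 1 quasi-likelihood fit of 6 group means with 9 contrasts and Benjamini-Hochberg adjustment over all genes tested. In simulated counts for the AC comparison in SjS (15420 genes) the fit called 79 of 100 genes changed by log2 0.5 and 100 of 100 changed by log2 2. It also called 8 unchanged genes. The 200 changed genes went up and down equally. In the data 28.6% of genes were called higher and 29.4% lower, so the simulation cannot show how the scaling does there. Changes below log2 0.5 were not simulated. Alternatives were other scalings, no filter, DESeq2 1.42.0, a replicate block and each sample left out.

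Labels do not tie samples to mice. Within strains, the correlation of deviations from group means between same-numbered samples ran from 0.02 to 0.263 over 18 pairs. Between strains, same-numbered samples of a treatment ran from -0.072 to 0.016. All 3 pairs of B6 control and CpG samples were above 0.1 (0.137 to 0.263), which was taken as pairing. The blocked counts stand beside that comparison. This cut does not exclude pairing in the other comparisons, as all 18 pairs within strains were above 0. The main fit treats all samples as separate, and counts that moved with the block are given for every comparison at the end. Genes described singly were mitochondrial members, the 3 nuclear members with the largest called changes each way per comparison, any past log2 1.3, core subunits, isoforms, and members on chromosomes 1 and 3, with values chosen among these after they were seen. A gene that this rule covers is counted but not described here. The members and the gene lists were chosen with earlier results of these data known. Summed levels of B cell and granulocyte markers, read in the same samples, were 15.2 to 29.3 CPM.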

Additional observations from a re-analysis of the deposited data

Results flagged for a closer look

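The AC response differed between strains in a direct test for several members, with values given as the log2 response in SjS minus that in B6. Counted over the set, 16 nuclear members were higher and 2 lower, and 2 mitochondrial members were higher. Of the tested nuclear members these were 18% and 2.25%, against 19.6% and 18.3% of all tested genes. The values were 0.78 for mt-Nd5, 0.52 for Cox7a2l, 0.48 for mt-Co3, 0.32 for Cox8a and Uqcrfs1, 0.31 for Uqcrh, 0.29 for Atp5c1, 0.27 for Cox5a and 0.24 for Atp5a1, and -0.45 for Ndufaf4 and -0.68 for Atp5sl. Under library totals the values of Atp5a1, Atp5c1, Cox5a, Cox8a, Uqcrfs1 and Uqcrh turned. The calls of Cox7a2l, mt-Co3 and mt-Nd5 were lost there.

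In the same test of the CpG response, 1 nuclear member was higher, 1 lower and 1 mitochondrial member higher. Of all tested genes, 3.24% were higher and 2.62% lower. The called members were Ndufc2 at 0.32, Uqcrc1 at -0.31 and mt-Atp8 at 0.91. Each lost its call in some of the alternatives, as given above.

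The ribosomal RNAs of the mitochondrial genome are no members and entered no comparison above. With ACs, mt-Rnr1 was at 1.13 in B6 and 2.61 in SjS, and mt-Rnr2 at 1.3 in B6 and 3.39 in SjS, both relative to control samples. The level of mt-Rnr2 was 459 ± 62.9 CPM in B6 control and 1133 ± 288 with ACs, and 342 ± 98.9 CPM in SjS control and 3602 ± 247 with ACs (SD, n = 3). Its part in the AC results of the mitochondrial messages was not tested.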

How the results depend on the processing

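Scaling to library totals moved the most counts. Nuclear members higher and lower became 8 and 11 for ACs in B6, 1 and 56 for ACs in SjS, 2 and 47 for CpG in B6, 5 and 29 for CpG in SjS, 2 and 7 for control strains, 1 and 69 for AC-treated strains, 8 and 2 for CpG-treated strains, 0 and 42 for the interaction with AC, and 4 and 0 for that with CpG. For mitochondrial members it gave 0 higher and 1 lower for ACs in SjS, 4 lower for CpG in B6, 3 higher for CpG in SjS, 12 lower for AC-treated and 0 for CpG-treated strains, and 0 and 2 higher for the interactions with AC and CpG. It turned 11 single values, the interactions with AC of Atp5a1 (-0.11), Atp5c1 (-0.05), Cox5a (-0.07), Cox8a (-0.02), Uqcrfs1 (-0.02) and Uqcrh (-0.04), the AC responses in SjS of Atp5a1 (-0.06), Atp5g3 (-0.11), Cox4i1 (-0.23) and Cyc1 (-0.04), and the AC strain difference of Uqcrfs1 (-0.02). Its all-gene medians show a shift of the whole table.

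For CpG-treated strains, nuclear members lower were 12 with DESeq2 size factors, 13 with DESeq2's Wald test and 4 without the filter, and mitochondrial members lower were 4 with size factors. The Wald test gave 4 and 2 mitochondrial members higher in the interactions with AC and CpG. Without the filter 9 nuclear members were higher for CpG in B6 and 0 in control strains. With the replicate block, 1 mitochondrial member was higher for ACs in B6, 5 in the interaction with AC and 3 in that with CpG, where 3 nuclear members were higher. No other count moved by over 1.5 times with the block. With the chromosome 1 copies added, chosen after seeing the data, 1 mitochondrial member was higher for ACs in B6 and 2 in the interaction with CpG. The cause was not tested. Of 115 called values, 27 lost the call under library totals beside the 11 that turned, 5 with the Wald test, 4 with size factors, 5 without the filter and 3 with the block.

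With 1 sample left out, nuclear higher and lower ranged over 16 to 34 and 2 to 5 for ACs in B6, 36 to 54 and 3 to 5 in SjS, 9 to 17 and 13 to 19 for CpG in B6, 13 to 16 and 8 to 12 in SjS, 0 to 1 and 6 to 15 for control, 8 to 14 and 6 to 12 for AC-treated and 1 to 4 and 2 to 11 for CpG-treated strains, and 10 to 17 and 2 to 3, and 0 to 2 and 0 to 1, for the interactions with AC and CpG. Mitochondrial higher ranged over 0 to 1 for ACs in B6, 3 to 5 in SjS, 0 to 1 for CpG in B6, 1 to 11 in SjS, and 2 to 6 and 0 to 4 for the interactions. Mitochondrial lower ranged over 1 to 3 and 0 to 3 for ACs and CpG in B6, and 10 to 12, 3 to 7 and 0 to 3 for control, AC and CpG strains.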
